A study of Homo sapiens with 15 samples.

Results

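ATF3 and the AP-1 transcription factors were followed across the arrays of SCC13 cells, a cutaneous squamous cell carcinoma line that lacks TLR4 and was stably transfected either with a TLR4-GFP plasmid (SCC13-TLR4) or with the empty control plasmid (SCC13-pUNO). The set held 10 genes, chosen by name as ATF3, its relatives ATF2 and JDP2, and the JUN and FOS genes. Their accessions led to 14 of the 50599 probes of the array, which carry 20503 genes in all. Both lines were selected with blasticidin, and of the cells given TLR4-GFP the fraction with the brightest GFP was sorted. No such sort is described for the control line, so that TLR4 and the sort cannot be told apart between the lines. The arrays came from 4 groups: untreated SCC13-pUNO cells (n = 4), untreated SCC13-TLR4 cells (n = 3), and cells of either line after 24 h with 10 μg/ml ultrapure LPS (n = 4 each). Replicates were separate cultures of the same transfected cells. The p-values measure the spread between their arrays, which holds that between cultures as well as labelling, hybridization and slide.

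AP-1 is a dimer of basic leucine zipper proteins in which a JUN protein pairs with another JUN, a FOS or an ATF protein. It is induced by growth factors, stress and Toll-like receptor signalling through the ERK, JNK and p38 kinases, and in keratinocytes it takes part in proliferation and differentiation. ATF3 is an early stress gene whose protein often represses transcription, and in macrophages it is known to dampen genes that TLR4 induces.

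The genes of this family are known to be controlled by sites for their own proteins, so the stretches upstream of ATF3, of JUN, its usual partner, and of FOS are shown. The sequences are the 250 bases before the annotated gene start, from RefSeq on GRCh38.p14, written 5′ to 3′ on the strand of the gene. They lie at chr1:212565157-212565406 on the plus strand for ATF3, chr1:58784048-58784297 on the minus strand for JUN and chr14:75278578-75278827 on the plus strand for FOS. Capitals mark the motifs found.
ATF3: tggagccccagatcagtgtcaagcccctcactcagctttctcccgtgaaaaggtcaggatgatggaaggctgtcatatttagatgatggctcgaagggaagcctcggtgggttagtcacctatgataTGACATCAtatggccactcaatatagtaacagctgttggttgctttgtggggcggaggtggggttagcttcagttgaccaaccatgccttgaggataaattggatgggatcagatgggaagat
JUN: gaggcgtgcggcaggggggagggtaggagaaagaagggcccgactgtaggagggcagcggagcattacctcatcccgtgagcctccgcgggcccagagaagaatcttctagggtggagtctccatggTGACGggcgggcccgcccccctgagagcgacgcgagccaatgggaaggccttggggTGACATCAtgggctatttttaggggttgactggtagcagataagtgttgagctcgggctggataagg
FOS: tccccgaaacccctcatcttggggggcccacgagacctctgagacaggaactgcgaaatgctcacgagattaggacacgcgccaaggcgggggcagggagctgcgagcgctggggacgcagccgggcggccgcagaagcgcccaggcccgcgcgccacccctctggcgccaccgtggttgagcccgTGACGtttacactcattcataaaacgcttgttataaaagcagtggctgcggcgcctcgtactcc
Both strands were searched for the AP-1 site TGACTCA, the cAMP response element TGACGTCA, the JUN and ATF variant TGACATCA, and the core TGACG, which the second motif contains. ATF3 and JUN shared the variant TGACATCA, which began 123 bases before the start of ATF3 and 67 bases before that of JUN. This motif was found in 2.38% of the 35116 promoters of the same length. FOS held the core 64 bases before its start. The core was found upstream of 7 of the 8 members with an entry, all but ATF3, counting a member when any of its starts held it. It was found in 21.2% of the promoters, each counted on its own, so the shares are not alike. Other starts of JDP2 held none of the motifs. JUND held the complete TGACGTCA 200 bases before its start, which 1.65% of the promoters held. The AP-1 site was found upstream of none of the 8 members that had an entry, against 4.20% of all promoters. A second start of ATF3 held none of the motifs. FOSL1 and ATF2 had no entry.

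Levels are log2 intensities relative to the array's 75th percentile, so that 0 is the intensity at that percentile and 1 unit is a doubling. The 75th percentile lay between 192 and 420 intensity units, and 47.1% to 56.2% of spots were well above background, the scanner software's own mark of detection. Of the 14 probes, 12 were tested, for 9 of the genes. The FOSB probe was well above background on 8 arrays and was not tested, and neither was the ATF3 probe A_24_P33895, which was above background on 2 arrays. The transfected gene went against 1 label: the untreated SCC13-pUNO array labelled replicate 2 had a TLR4 level of 3.04, within the range of 2.84 to 3.19 of the SCC13-TLR4 arrays, whereas TLR4 was between -6.40 and -3.80 on the other arrays labelled SCC13-pUNO. On this array, 8 of the 10 members stood highest of the 4 arrays of its group, all but JDP2 and FOSL2, and so did 24.6% of 22380 tested probes. The main member results that move without it are therefore given both ways, and other values use all arrays unless stated. Of 10 keratinocyte markers, 8 were above background on all 15 arrays, whereas 5 of 6 fibroblast markers were above background on none. All 4 leukocyte and macrophage markers (PTPRC, CD68, CD14 and CSF1R) were also above background on all 15 arrays, as were 2 of 5 melanocyte markers (PMEL and MITF). The summed level of the leukocyte markers, in multiples of the 75th percentile, lay between 1.02 and 1.77 and that of the keratinocyte markers between 585 and 821.

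ATF3 had the largest line differences among the tested members, at A_23_P34915, and its 3 tested probes differed among themselves. A_23_P34915, its main probe, was taken as the brightest over all arrays among the probes of its accession. That order rested on the SCC13-TLR4 arrays, where its group means were -0.41 and -0.50 against -0.81 and -1.09 at A_33_P3214096, while A_33_P3214096 was the brighter in LPS-treated SCC13-pUNO cells. The choice of the probe is thus not independent of the line difference, so its tests are no independent support for that difference. The probe read -1.97, 0.01, -1.83 and -2.10 in untreated SCC13-pUNO cells against -1.11, -0.12 and 0.01 in untreated SCC13-TLR4 cells. After LPS the probe read -1.38, -1.81, -2.46 and -1.58 in SCC13-pUNO cells and -1.22, -0.40, -0.27 and -0.13 in SCC13-TLR4 cells. The LPS-treated lines did not overlap, and the untreated lines overlapped through the array labelled replicate 2 alone.

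**Figure D1:**
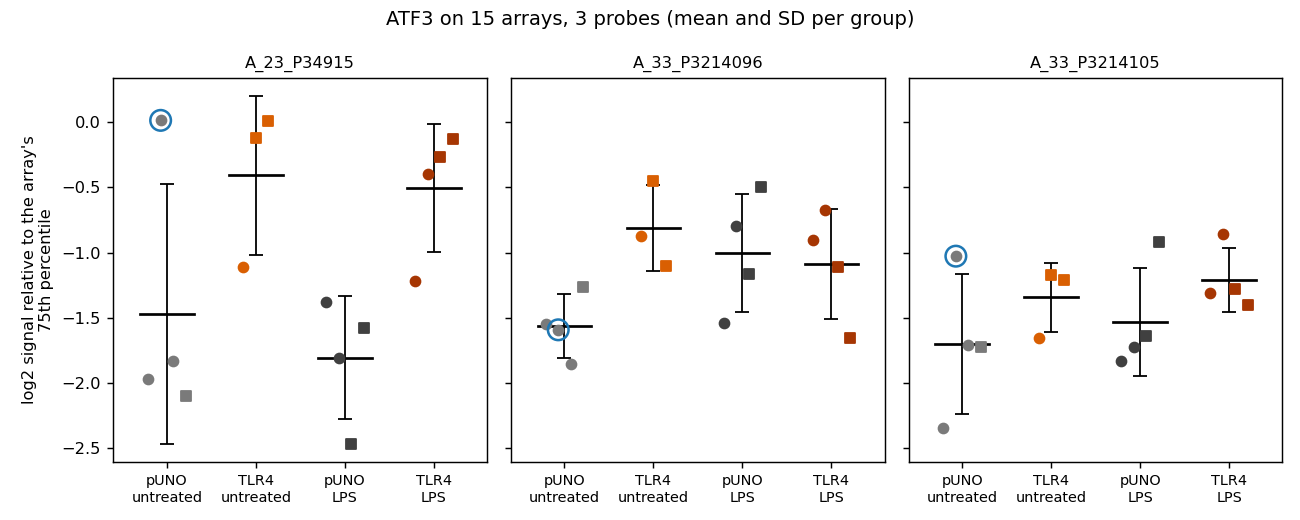
The panels plot the log2 level of ATF3, relative to the array's 75th percentile, for 3 probes in the 4 groups, with circles for slide 1, squares for slide 2, bars for mean and SD, and a blue ring around the untreated SCC13-pUNO array labelled replicate 2. SCC13-TLR4 cells were higher at A_23_P34915 with LPS, in 16 of 16 pairs of arrays, and at A_33_P3214096 without LPS, in 12 of 12 pairs.

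With LPS, ATF3 was higher in SCC13-TLR4 cells by 1.30 on the log2 scale (95% interval 0.35 to 2.26, 2.47-fold), which did not pass the threshold (limma adjusted p = 1.00). The exact permutation test gave p = 0.0286, the smallest that 4 against 4 arrays allow. In untreated cells the difference was 1.06 (interval 0.03 to 2.10, limma adjusted p = 0.999), and 1.56 without the array labelled replicate 2 (interval 0.79 to 2.33, limma adjusted p = 0.841). In the exact permutation test the untreated groups gave p = 0.229 over 35 splits and p = 0.1 without that array, the smallest that 3 against 3 arrays allow. Averaged over untreated and LPS-treated cells, the line difference was 1.18 (interval 0.48 to 1.89, limma adjusted p = 0.862). Without the array labelled replicate 2 it was 1.43 (interval 0.93 to 1.94), and ATF3 then passed the threshold (limma adjusted p = 0.0462). An exact permutation of the arrays within each LPS state, chosen after seeing the data, gave p = 0.0102 with all arrays and p = 0.00143, the smallest it can give, without that array.

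The line difference at this probe was seen on both slides and was of unequal size. With LPS it was 0.79 on slide 1 and 1.82 on slide 2, each from 2 arrays of either line. In untreated cells it was 0.16 on slide 1, or 0.79 without the array labelled replicate 2, and 2.04 on slide 2, each slide holding 1 untreated array of one of the lines. The lowest SCC13-TLR4 arrays with and without LPS, at -1.22 and -1.11, were both labelled replicate 1 and both lay on slide 1. With the normexp background correction, which adds an offset to every signal, the line differences were 0.67 untreated and 0.76 with LPS. Without that correction, the mean over the 3 tested ATF3 probes gave 0.73 and 0.51. The slide accounted for 2.42% of the variance of this probe, against a median of 35.4% over the tested probes with a value on every array. This share compares the slide means over all groups, -1.21 and -0.95, and does not count the unequal line differences on the slides.

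The probes of ATF3 did not give 1 answer. A_33_P3214096, of the same accession, read -1.55, -1.59, -1.86 and -1.26 in untreated SCC13-pUNO cells against -0.87, -0.45 and -1.10 in untreated SCC13-TLR4 cells, with no overlap between the lines. After LPS it read -1.54, -0.80, -1.16 and -0.50 in SCC13-pUNO cells and -0.90, -0.67, -1.11 and -1.66 in SCC13-TLR4 cells, which overlapped. The array labelled replicate 2 lay in the middle of its group here. The line difference was thus 0.76 untreated (interval 0.17 to 1.34, exact permutation p = 0.0286) and -0.08 with LPS (interval -0.62 to 0.45), both with a limma adjusted p of 1.00. Within slides it was 0.79 on slide 1 and 0.485 on slide 2 untreated. With LPS it was 0.38 on slide 1 and -0.55 on slide 2. The response of the lines to LPS differed by -0.84 at this probe (interval -1.63 to -0.05), and the difference did not pass the threshold (limma adjusted p = 1.00).

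A_33_P3214105, which carries the accession of another ATF3 transcript, had intermediate line differences. It read -2.34, -1.03, -1.71 and -1.73 in untreated SCC13-pUNO cells and -1.65, -1.17 and -1.21 in untreated SCC13-TLR4 cells. Its difference was 0.36 untreated (interval -0.25 to 0.97), 0.58 without the array labelled replicate 2 (interval 0.02 to 1.14), and 0.32 with LPS (interval -0.25 to 0.88). Over the 15 arrays, its level correlated with that of A_23_P34915 with r = 0.65, while A_33_P3214096 correlated with r = 0.12. Both are descriptions over arrays that share lines and slides.

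**Figure D2:**
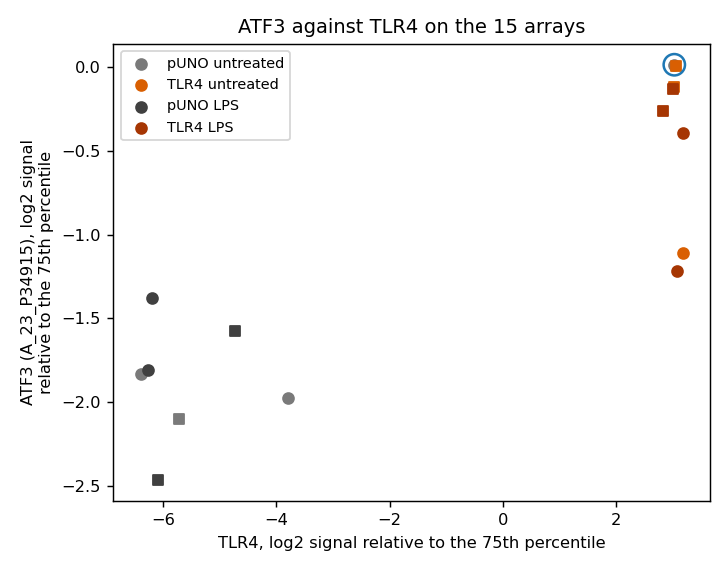
The plot sets the log2 level of ATF3 at A_23_P34915 against the log2 level of TLR4, both relative to the 75th percentile, with 1 point per array, circles for slide 1, squares for slide 2, and a blue ring around the untreated SCC13-pUNO array labelled replicate 2. The arrays form 2 clusters by TLR4, the ringed array lies with the SCC13-TLR4 arrays, and ATF3 was at -1.22 or higher in the cluster with high TLR4 and at -1.38 or lower in the other.

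LPS itself left ATF3 without a called change. The LPS difference at A_23_P34915 was -0.33 in SCC13-pUNO cells (interval -1.29 to 0.62), or 0.16 without the array labelled replicate 2, and -0.10 in SCC13-TLR4 cells (interval -1.13 to 0.94). At A_33_P3214096 it was 0.56 in SCC13-pUNO cells (interval 0.02 to 1.10, 15 of 16 pairs higher, exact permutation p = 0.0571) and -0.28 in SCC13-TLR4 cells (interval -0.86 to 0.31). At A_33_P3214105 it was 0.17 in SCC13-pUNO cells, or 0.40 without the array labelled replicate 2, and 0.13 in SCC13-TLR4 cells.

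Across all probes tested, limma called 0 of 22685 probes (0%) in each of the 4 comparisons of groups, in the difference between the lines in their response to LPS, and in the LPS effect averaged over the lines. At an unadjusted p under 0.05 there were 566 probes between the untreated lines, 617 between the LPS-treated lines, 562 and 301 with LPS in SCC13-pUNO and SCC13-TLR4 cells, 299 for the difference in response and 468 for LPS averaged over the lines. The line difference averaged over LPS called 5 probes (0.022%). None of the 12 member probes was among these calls, and at an unadjusted p under 0.05 there were 2, 1, 2 and 0 member probes in the 4 comparisons. Between the lines, 10 of the 12 were higher in SCC13-TLR4 cells untreated and 8 with LPS. The medians of the 12 log2 fold changes were 0.06 and 0.11. Of all probes, 45.1% and 47.7% were higher, at medians of -0.02 and -0.01. The 12 probes stand for 9 genes, with ATF3 and ATF2 counted more than once. Without the array labelled replicate 2, 11 were higher untreated at a median of 0.15, against 48.6% of all probes, and the median with LPS in SCC13-pUNO cells went from -0.09 to 0.06. Without the array labelled replicate 2, limma called 7 probes between the untreated lines (0.0309%), 10 between the LPS-treated lines (0.0441%) and 23 averaged over LPS (0.101%), and the last held the ATF3 probe A_23_P34915, the single member probe called. Counted by groups that do not overlap, 1 of the 12 member probes stood apart between the untreated lines, against 3.59% of all probes, and 1 between the LPS-treated lines, against 1.27%. Both were ATF3 probes, and no member probe stood apart with LPS in SCC13-pUNO cells (1.25% of all probes) or in SCC13-TLR4 cells (1.66%).

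**Figure D3:**
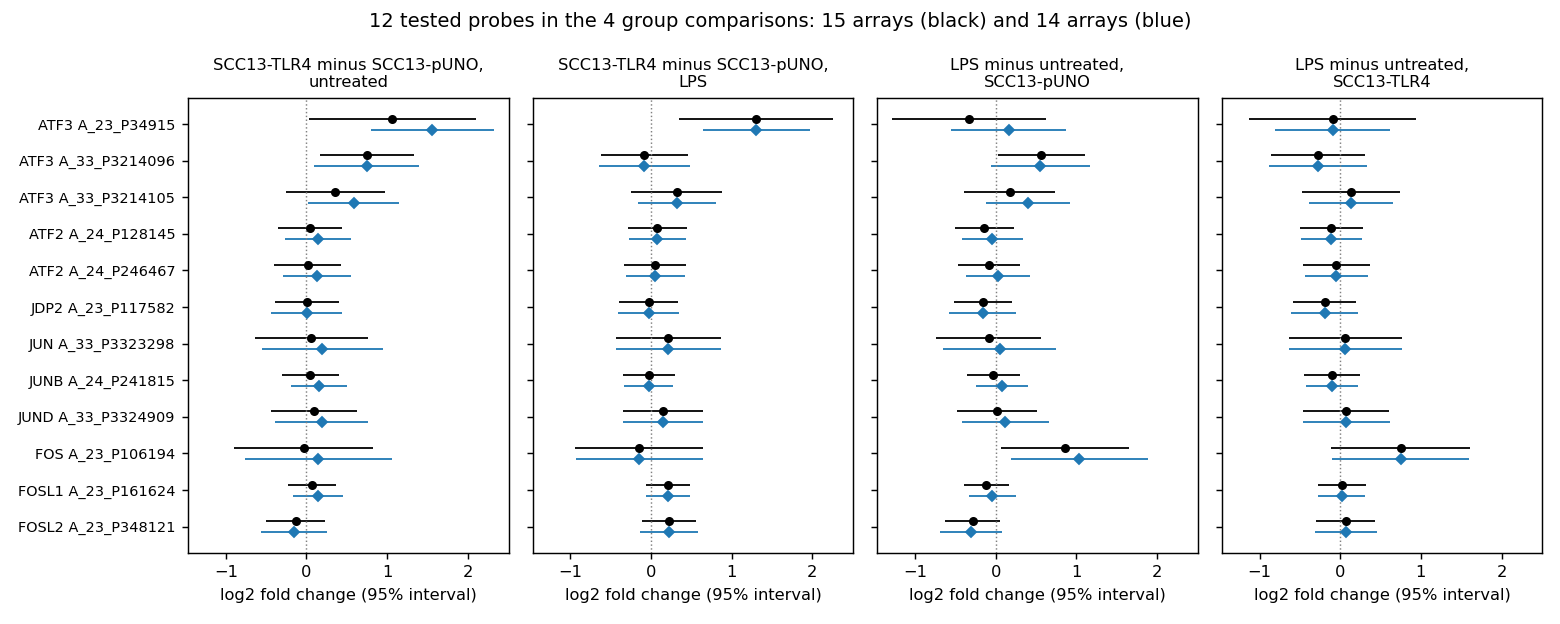
The panels plot the log2 fold change and 95% interval of the 12 tested probes in the 4 comparisons of groups, from limma on 15 arrays (black circles) and on 14 arrays without the untreated SCC13-pUNO one labelled replicate 2 (blue diamonds). ATF3 A_23_P34915 lies at 1.06 and 1.30 in the line comparisons and FOS at 0.86 and 0.75 in the LPS comparisons, while the farthest of the other genes is FOSL2, at -0.29 with LPS in SCC13-pUNO cells.

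JUN, the most potent activator among the JUN proteins, was not called different in any comparison. Its level was -0.43, 0.49, 0.07 and 0.20 in untreated SCC13-pUNO cells, -0.35, 0.35 and 0.43 in untreated SCC13-TLR4 cells, -0.69, 0.01, 0.26 and 0.40 in LPS-treated SCC13-pUNO cells and -0.55, 0.36, 0.54 and 0.47 in LPS-treated SCC13-TLR4 cells. All groups overlapped, and in each the lowest array was the one labelled replicate 1. The line difference was 0.06 untreated (interval -0.64 to 0.76), or 0.20 without the array labelled replicate 2, and 0.21 with LPS (interval -0.44 to 0.86). The slide accounted for 41.6% of the variance of JUN, whose mean was -0.14 on slide 1 and 0.38 on slide 2.

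JUNB, a weaker activator that can oppose JUN, varied little. It ranged from -0.13 to 0.33 in untreated SCC13-pUNO cells and from -0.10 to 0.20 in untreated SCC13-TLR4 cells, and its line difference was 0.05 untreated (interval -0.30 to 0.40), or 0.15 without the array labelled replicate 2, and -0.03 with LPS (interval -0.35 to 0.29). JUND, the JUN gene expressed most evenly in resting cells, ranged from -0.38 to 0.69 in LPS-treated SCC13-pUNO cells and had line differences of 0.09 untreated (interval -0.44 to 0.63), or 0.19 without that array, and 0.15 with LPS (interval -0.35 to 0.64). The slide means of JUND were 0.37 and -0.01.

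FOS, the classical immediate early gene, had the largest LPS differences among the tested members, within overlapping groups. It read -3.81, -2.24, -2.43 and -2.61 in untreated and -2.01, -1.08, -2.66 and -1.89 in LPS-treated SCC13-pUNO cells. In SCC13-TLR4 cells it read -3.12, -2.37 and -2.93 untreated and -2.62, -1.78, -1.93 and -1.90 with LPS. In each line, 1 LPS-treated array lay among the untreated arrays of that line.

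The LPS difference of FOS was 0.86 in SCC13-pUNO cells (interval 0.07 to 1.66, 13 of 16 pairs higher, exact permutation p = 0.143) and 0.75 in SCC13-TLR4 cells (interval -0.11 to 1.61, 11 of 12 pairs, exact permutation p = 0.0857). Neither passed the threshold (limma adjusted p = 1.00 in both), and the lines differed in this response by -0.11 (interval -1.28 to 1.06). Averaged over the lines, an estimate chosen after seeing the data, the difference was 0.81 (interval 0.22 to 1.39, 1.75-fold, limma adjusted p = 1), with p = 0.0102 in an exact permutation of the arrays within each line. Without the array labelled replicate 2 it was 0.89. The difference in SCC13-pUNO cells was 1.04 without the array labelled replicate 2 (exact permutation p = 0.114) and 0.51 without the untreated array labelled replicate 1. With the normexp background correction the differences were 0.46 and 0.39 in the lines. On slide 1 the LPS difference was 1.28 in SCC13-pUNO and 0.92 in SCC13-TLR4 cells, and on slide 2 it was 0.34 and 0.74. Between the lines, FOS differed by -0.03 untreated (interval -0.89 to 0.82), or 0.14 without the array labelled replicate 2, and by -0.15 with LPS (interval -0.94 to 0.65).

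FOSB, which is induced in parallel with FOS by growth signals, was near the limit of detection. It was well above background on 3 of 4 arrays of untreated SCC13-pUNO cells, 0 of 3 of untreated SCC13-TLR4 cells, 2 of 4 of LPS-treated SCC13-pUNO cells and 3 of 4 of LPS-treated SCC13-TLR4 cells. The levels were -4.02, -3.39, -3.85 and -3.80 in untreated SCC13-pUNO cells against -6.53, -4.58 and -5.18 in untreated SCC13-TLR4 cells, with no overlap. For a group in which no array detected a probe, the faintest signal that was well above background, here -4.66, was taken as its level. The mean of untreated SCC13-pUNO cells stood 1.86-fold above it, or 1.71-fold without the array labelled replicate 2. These values are no lower bounds on the line difference. FOSB at -4.02 and at -4.58 lay above that signal and was still not marked as well above background. The exact permutation test on the levels gave p = 0.0286, the smallest for 4 against 3 arrays.

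With LPS, FOSB in SCC13-TLR4 cells read -3.99, -3.44, -5.09 and -4.13, and in SCC13-pUNO cells -3.62, -4.18, -4.09 and -3.95. These groups overlapped (exact permutation p = 0.714). Within SCC13-TLR4 cells, FOSB was higher with LPS in 11 of 12 pairs of arrays (exact permutation p = 0.0857). The LPS-treated mean stood 1.41-fold above the same faintest signal, which again is no lower bound. On the level scale the LPS difference in SCC13-TLR4 cells was 2.81 on slide 1, where 1 untreated array at -6.53 was not above background. On slide 2 it was 0.27. The untreated line difference was -2.78 on slide 1 and -1.08 on slide 2.

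FOSL1 and FOSL2 encode FRA1 and FRA2, FOS proteins that lack a strong activation domain, and FRA1 is prominent in carcinoma cells. FOSL1 had the smallest spread of the members, with an SD of 0.17 between arrays around the group means, against a median of 0.26 over tested probes. It read 1.42, 1.67, 1.32 and 1.38 in untreated SCC13-pUNO, 1.50, 1.60 and 1.46 in untreated SCC13-TLR4, 1.54, 1.37, 1.22 and 1.20 in LPS-treated SCC13-pUNO and 1.21, 1.71, 1.67 and 1.57 in LPS-treated SCC13-TLR4 cells. The groups overlapped, and the line difference was 0.07 untreated (interval -0.23 to 0.37) and 0.21 with LPS (interval -0.07 to 0.49). Without the array labelled replicate 2, the untreated lines no longer overlapped, at a difference of 0.15 (exact permutation p = 0.1). Over the 15 arrays FOSL1 correlated with ATF3 A_23_P34915 with r = 0.75, the highest value among the other members.

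FOSL2 had line differences of -0.13 untreated (interval -0.50 to 0.24), which was 0.11 on slide 1 and -0.14 on slide 2, and 0.22 with LPS (interval -0.12 to 0.56). With LPS it was -0.29 in SCC13-pUNO cells (interval -0.62 to 0.05), lower in 15 of 16 pairs of arrays (exact permutation p = 0.0571) and 0.07 in SCC13-TLR4 cells (interval -0.30 to 0.43). The slide accounted for 51.7% of its variance, with means of -1.12 on slide 1 and -1.43 on slide 2.

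ATF2, a partner of JUN that JNK and p38 activate by phosphorylation, had 2 tested probes. The line difference was 0.04 and 0.01 untreated and 0.08 and 0.05 with LPS, and the intervals of all 4 lay between -0.40 and 0.44. The untreated differences were 0.14 and 0.13 without the array labelled replicate 2. At the brighter probe the slide accounted for 68.0% of the variance. JDP2, a repressor that pairs with JUN and ATF2, was read by 10 spots on each array. Its line difference was 0.01 untreated (interval -0.39 to 0.40) and -0.03 with LPS (interval -0.39 to 0.33).

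The repeated spots of JDP2 gave the error within an array. The SD over the spots of an array lay between 0.05 and 0.14, and the standard error of an array mean was at most 0.05, against an SD of 0.24 between arrays around their group means, which also holds labelling, hybridization and slide. The lowest arrays were at -0.61 in LPS-treated SCC13-pUNO and -0.65 in LPS-treated SCC13-TLR4 cells. Keeping the spots that the software marked as outliers, 6 over all arrays, changed the untreated line difference from 0.01 to -0.22. Among untreated arrays, 9 of 10 spots had been kept on SCC13-pUNO replicate 2 and on SCC13-TLR4 replicate 1. All spots had been kept on the other untreated arrays.

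**Figure D4:**
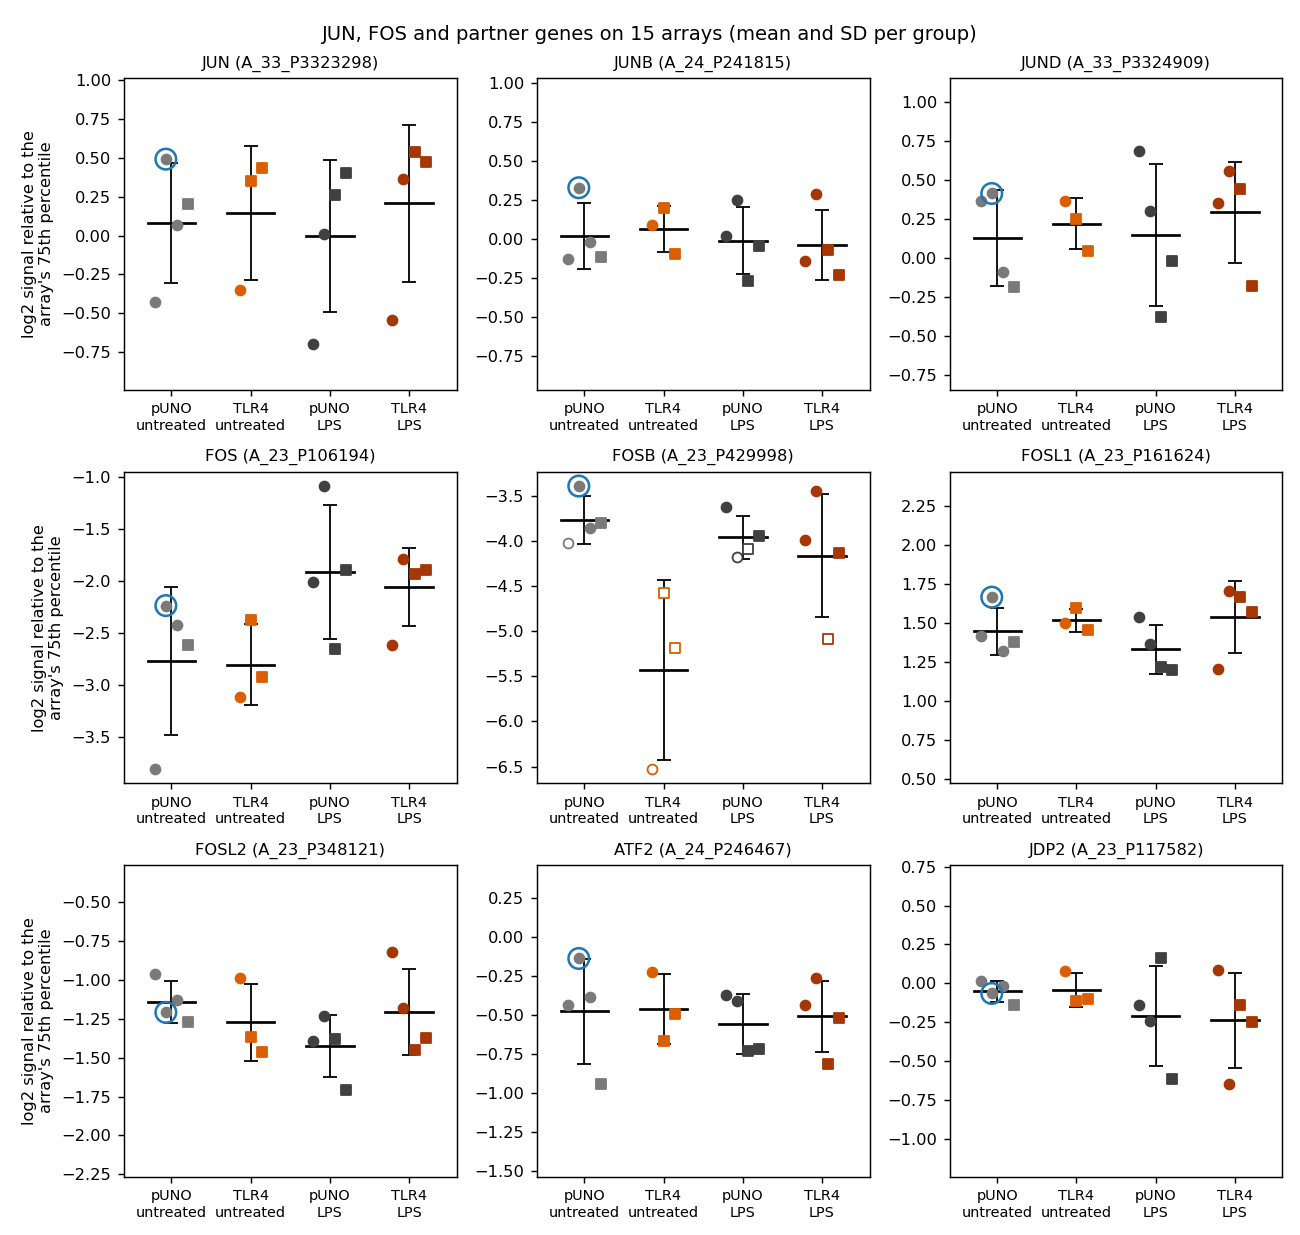
The panels plot the log2 level, relative to the array's 75th percentile, of the brightest probe of 9 genes in the 4 groups, with circles for slide 1, squares for slide 2, open symbols where the probe was not well above background, bars for mean and SD, and a blue ring around the untreated SCC13-pUNO array labelled replicate 2. The mean of FOS lies higher with LPS in both lines. FOSB has open symbols on all 3 arrays of untreated SCC13-TLR4 cells, which do not overlap with untreated SCC13-pUNO cells. The groups of FOS and of the other 7 genes overlap in the 4 comparisons.

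Ordered by group mean, neighbouring groups lay apart by more than the larger of their SDs in 2 instances among the 10 members. The share over all probes is not given, so this count is a description only. One was FOS, between untreated SCC13-pUNO cells at -2.77 ± 0.71 (SD, n = 4) and LPS-treated SCC13-TLR4 cells at -2.06 ± 0.38 (SD, n = 4). These groups differ in both line and LPS, and the gap of 0.7151 barely passed the SD of 0.7105. The other was FOSB, between untreated SCC13-TLR4 cells at -5.43 ± 1.00 (SD, n = 3) and LPS-treated SCC13-TLR4 cells at -4.16 ± 0.68 (SD, n = 4). No array of that untreated group was above background for FOSB. For ATF3 the order was LPS-treated SCC13-pUNO at -1.81 ± 0.47 (SD, n = 4), untreated SCC13-pUNO at -1.47 ± 1.00 (SD, n = 4), LPS-treated SCC13-TLR4 at -0.50 ± 0.49 (SD, n = 4) and untreated SCC13-TLR4 cells at -0.41 ± 0.61 (SD, n = 3). Its widest gap, 0.97 between the lines, was smaller than the larger SD of 1.00, which fell to 0.14 without the array labelled replicate 2. In bulk RNA, a higher level in every cell and a larger share of cells with the transcript cannot be told apart.

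The genes whose levels followed ATF3 A_23_P34915 most closely over the 15 arrays, among 15394 probes with a symbol that were above background on all arrays, were ERC1 (r = 0.90), CLCA2 (r = 0.89), RAB30-DT (r = 0.86), VPS13A (r = 0.86) and KIAA1671 (r = 0.85). ERC1, which encodes a scaffold protein of vesicle traffic that also binds the IKK complex, differed between the lines by 0.29 untreated and 0.49 with LPS, and CLCA2, a p53-responsive keratinocyte adhesion gene, by 0.37 and 0.34. After the mean of each slide had been removed, the closest were KIF1B (r = 0.95), FAT1 (r = 0.91), SLC6A8 (r = 0.90), ERC1 (r = 0.90) and DST (r = 0.90). ERC1 was thus the gene on both lists. With the slide means left in, r was 0.45 for KIF1B, 0.45 for FAT1, 0.66 for SLC6A8 and 0.47 for DST. TLR4 itself correlated with ATF3 with r = 0.87, over arrays that fall into the 2 clusters of the lines, and no r was computed within them.

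No gene of 5 lists of the wider pathway passed the threshold in the 4 comparisons of groups, in which 0% of all probes were called, so that these counts say nothing particular to the lists. Among 21 further ATF, CREB and small leucine zipper partners, 16 were tested, and with LPS 3 were higher and 13 lower in SCC13-TLR4 than in SCC13-pUNO cells, with a median log2 fold change of -0.05 against -0.01 over all probes tested. In untreated cells 6 were higher and 10 lower, with a median of -0.06 against -0.02 over all probes. With LPS the highest was MAFF, a small MAF protein, at 0.27 ± 0.11 (SE). The lowest with LPS was ATF7, a close relative of ATF2, at -0.33 ± 0.22 (SE). Of 16 kinases upstream of AP-1, 15 had a probe and 14 were tested, 7 higher and 7 lower with LPS at a median of -0.01, and 3 higher and 11 lower untreated at a median of -0.08. With LPS the lowest was MAP3K1, which feeds the JNK pathway, at -0.28 ± 0.14 (SE). The highest was MAP3K8, the kinase that links Toll-like receptors to ERK, at 0.19 ± 0.22 (SE). MAP3K8 was faint and was above background on 12 of 15 arrays.

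Of the 9 genes of the ternary complex and the serum response, which switch on FOS and other early genes, 7 were tested, 5 higher and 2 lower with LPS at a median of 0.15, and 3 higher and 4 lower untreated at a median of -0.09. With LPS ELK3 was highest at 0.25 ± 0.17 (SE) and ELK4 lowest at -0.13 ± 0.12 (SE), both ternary complex factors that bind with SRF, and untreated ELK3 was lowest at -0.22 ± 0.18 (SE). EGR1, an early gene of the same kind as FOS, differed with LPS by 0.22 in SCC13-pUNO and 0.24 in SCC13-TLR4 cells.

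Of 20 AP-1 target genes, 16 were tested, 10 higher and 6 lower with LPS at a median of 0.04, and 6 higher and 10 lower untreated at a median of -0.07. HBEGF, a ligand of the EGF receptor, was highest with LPS at 0.46 ± 0.18 (SE) and differed by 0.50 ± 0.19 (SE) in untreated cells, and MMP9, a matrix metalloprotease, was lowest with LPS at -0.16 ± 0.17 (SE). The lowest untreated, and the largest line difference of the list in size, was the cytokine gene IL6 at -0.72 ± 0.42 (SE), which was -0.14 ± 0.39 (SE) with LPS. Of 12 stress genes known to move with ATF3, 3 of them also on the other lists, 11 were tested, 7 higher and 4 lower untreated at a median of 0.06, and 8 higher and 3 lower with LPS at a median of 0.05, there from GADD45B at -0.25 ± 0.11 (SE) to DDIT3, which encodes the stress factor CHOP, at 0.22 ± 0.21 (SE). Against untreated cells, 10 of these 11 were lower with LPS in each line, at medians of -0.06 in both, and none passed the threshold. Without the array labelled replicate 2 the median in SCC13-pUNO cells was 0.003.

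Other genes moved with the lines on the same arrays. The summed level of the erythroid markers, in multiples of the 75th percentile, lay between 0.33 and 0.51 in LPS-treated SCC13-pUNO cells and between 14.7 and 24.2 in SCC13-TLR4 cells, and reached 25.3 on the untreated SCC13-pUNO array labelled replicate 2. HBB, which encodes beta globin, was well above background on 8 arrays, all 7 of SCC13-TLR4 cells and that one, while HBA2 and ALAS2 differed between the LPS-treated lines by 0.31 and -0.18. The basal keratin gene KRT14 differed by 1.28 ± 0.26 (SE) averaged over LPS (limma adjusted p = 0.227), and by 1.46 without the array labelled replicate 2 (limma adjusted p = 0.0136). Their part in the difference of ATF3 was not tested.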

How the data were processed

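RNA of 15 cultures was read on 1-colour Agilent SurePrint G3 Human 8x60K arrays. Per the file headers, the authors made each spot intensity with Feature Extraction 10.7.3.1, which removes background and spatial trends, and left the deposited values unscaled between arrays. Here each array's 75th percentile over non-control spots was subtracted from its log2 intensities, and spots marked as outliers were dropped. A probe was above background on an array when at least 50% of its spots were so marked, and tested when this held on every array of at least 1 group. Limma 3.58.1 in R 4.3.3 fitted a mean per group to all arrays, with Benjamini-Hochberg adjustment over 22685 probes and a threshold of 0.05. Two-sided exact permutation tests were run on the group means as well. Intervals are 95% intervals of that fit. The number of arrays limits the precision.

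Symbols came from RefSeq through the probes' accessions (28174 of 50599 probes). Every probe of the 10 members was named, the brightest as the main one (for ATF3, the brightest of 1 accession, a choice that depends on the SCC13-TLR4 arrays), with TLR4, the extremes of each list between the LPS-treated lines, and the probes most correlated with ATF3. EGR1, IL6, HBA2, ALAS2, KRT14 and the leukocyte and melanocyte markers were named after their values were seen. Members and lists were chosen with earlier results of these data known. The test was tried on simulated data. The alternatives were other background corrections, centrings, filters, models and array sets. Figures were drawn with matplotlib 3.10.9.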

Additional observations from a re-analysis of the deposited data

Results flagged for a closer look

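Among the 42 sets of 4 arrays (14 probes in the 3 groups of 4), 2 held an array that stood far from the other arrays of its group, and chance alone gives about 2.1 (1 in 20). ATF3 A_23_P34915 stood at 0.0128 on the untreated SCC13-pUNO array labelled replicate 2, against -2.10 to -1.83 on the other arrays of that label. TLR4 was high on the same array. JUN was at -0.55 on the array of LPS-treated SCC13-TLR4 cells labelled replicate 1, against 0.36 to 0.54 on the other arrays of its group.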

How the results depend on the processing

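No member was called in any of the 4 comparisons of groups under any alternative. In the line difference averaged over LPS, 1 member probe, ATF3 A_23_P34915, was called without the untreated SCC13-pUNO array labelled replicate 2, at 1.43 (0 to 1 member probes over the arrays left out), and 1 with slide as a factor and without that array, at 1.39 (limma adjusted p = 0.0465). Counts of called probes over the whole array moved more. Between the untreated lines there were 12 with array weights and 11 with slide as a factor and without that array (0 to 7 over the arrays left out). Between the LPS-treated lines there were 5 with only the 2 groups compared and 22 with slide as a factor and without that array (0 to 10). For LPS in SCC13-pUNO, LPS in SCC13-TLR4, the difference in response and LPS averaged over the lines, counts with single arrays left out were 0 to 1 (1 without LPS-treated SCC13-pUNO replicate 2), 0 to 3, 0 to 2 and 0 to 2 (the highest without untreated SCC13-TLR4 replicate 3). The averaged line difference gave 0 calls with quantile normalization, detection required on all 15 arrays, outlier spots retained, the replicate block, array weights or trend and robust moderation, 2 with no filter, 22 with slide as a factor, 49 with slide as a factor and without that array, and 0 to 23 with arrays left out (23 without that array, 2 without untreated SCC13-TLR4 replicate 3, 1 without LPS-treated SCC13-TLR4 replicate 4 and 0 without any other). The cause was not tested.

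The ATF3 line differences at A_23_P34915 and the FOS differences with LPS kept their direction under all alternatives, within-slide values included. Small values of both genes changed sign. The ATF3 LPS difference in SCC13-pUNO became 0.12 with slide as a factor and without that array, 0.13 as the mean over all tested ATF3 probes and 0.0825 within slide 2 (-0.54 to 0.16 over arrays left out), in SCC13-TLR4 0.30 within slide 1 (-0.44 to 0.14), the difference in response -0.18 with slide as a factor and without that array and -0.0169 with array weights (-0.26 to 0.48), and the averaged LPS difference 0.0333 with slide as a factor and without that array (from -0.21; -0.39 to 0.0333 over arrays left out). The FOS line difference in untreated cells became 0.0029 with the replicate block, 0.12 with slide as a factor and without that array and 0.0863 with array weights (-0.38 to 0.14), and with LPS 0.36 within slide 2 (-0.39 to 0.13). The averaged FOS line difference ran -0.26 to 0.0477 and the FOS difference in response -0.36 to 0.24 over arrays left out. Of 592 values of the other 7 tested genes under alternatives, 68 changed sign, none from a value above 0.21 in size.

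The labels do not say that a replicate number marks a shared batch, and deviations of same-numbered arrays correlated between -0.54 and 0.62 over 21 pairs. With the replicate block, the ATF3 line difference was 1.06 untreated and 1.30 with LPS, and no member was called. Faint signals limit FOSB, and 3 or 4 arrays per group limit the other members.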
